A study of Mus musculus with 12 samples.

Results

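Pseudouridine in tRNA of old mouse hematopoietic stem and progenitor cells was set against that of young ones, using the libraries treated with CMC alone and without subtracting the untreated libraries. CMC is a carbodiimide that stays bound to pseudouridine and halts reverse transcriptase, so cDNA ends, or stops, pile up there. The old group with CMC and the young group with CMC had 3 libraries each, and the other 6 of the 12 libraries were incubated in the same buffer (BEU) without CMC. All mice were wild type per the labels, which give no age in weeks or months. The labels do not say whether replicates are separate animals, so the p-values given here cover only how far these libraries differ, and part of that may be technical. In every group the small RNA, under 200 nt, had first been demethylated with AlkB, both the wild type and the D135S mutant, enzymes that strip methyl groups from bases such as 1-methyladenosine and leave pseudouridine as it is. The series title gives the pseudouridine synthase PUS10 as an enzyme induced with age, and the libraries address whether tRNA pseudouridine differs between the ages. The tables hold tRNA only, so the identity of the cells could not be checked against marker genes.

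Each row is 1 base of 1 tRNA, and its stop rate is the percent of reads covering the base that ended there. Rows with coverage of at least 20 reads in all 6 CMC libraries were kept, and entries with identical values were counted once. This left 10159 of the 14170 rows of distinct tRNAs, in 189 tRNAs. Of them 62 were the row before the first base and were not tested. Coverage in the deposited tables never exceeded 8015 reads, and 1591 rows lie at or 3′ of a base where at least 1 CMC library reached 7500. These rows at the ceiling were treated apart from the 8568 below it. A stop row had a mean stop rate of at least 5% over the 6 CMC libraries and at least 60 stop reads in all, a choice that does not look at age. A row can still pass through the age where it is high. T54 of tRNA-Thr-CGT-1-1 averaged 4.91% in young libraries. Position 34 of tRNA-Pro-TGG-2-1 and tRNA-Pro-CGG-1-1 averaged 4.31% and 4.22% in old ones. There were 1679 stop rows below the ceiling, in 179 tRNAs, and 168 at it. Of the 1921 T rows below the ceiling 844 were stop rows, against 377 of 2587 G, 235 of 2409 C and 223 of 1589 A rows.

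tRNA is the most densely modified RNA of the cell, and several pseudouridine synthases each act at their own positions. PUS1 is known to act at positions 27 and 28 of the anticodon stem, PUS3 at 38 and 39, PUS7 at 13 and at 35 of tRNA-Tyr, TRUB1 at 55 of the T loop, and PUS10 at 54 and 55. Other modifications, such as wybutosine at position 37 of tRNA-Phe or 1-methylguanosine at that position of tRNA-Leu, halt reverse transcriptase without CMC, as far as AlkB has left them in place.

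The deepest library was young replicate 2 and the shallowest young replicate 3: the highest coverage of each tRNA summed to 767650 and 201980 reads. The median coverage of a stop row was 249, 958 and 134 reads in young replicates 1 to 3 and 238, 137 and 400 in the old ones. The mean stop rate over all stop rows was lowest in young replicate 2, at 18.5%, and highest in old replicate 2, at 21.3%, where coverage was low. What depth contributes to the differences was not tested.

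Some rows named in the comparison are shown here with the entry sequences of the deposited tables, 5′ to 3′, as DNA letters. The capital marks the base of the row. The first 3 carry a stop that was higher in old libraries, and the next 5 a stop that was lower or, in tRNA-Val-AAC-2-1, did not differ beyond its spread. T54 of tRNA-Ser-GCT-3-1 was chosen after the values were seen and did not pass the edgeR test given below (adjusted p = 0.0970).
tRNA-Leu-CAG-4-1, G at position 37: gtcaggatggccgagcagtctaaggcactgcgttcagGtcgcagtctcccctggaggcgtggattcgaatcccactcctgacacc
tRNA-Thr-CGT-1-1, T at position 54: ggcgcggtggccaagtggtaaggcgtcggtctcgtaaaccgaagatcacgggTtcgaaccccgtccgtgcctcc
tRNA-Ser-GCT-3-1, T at position 54: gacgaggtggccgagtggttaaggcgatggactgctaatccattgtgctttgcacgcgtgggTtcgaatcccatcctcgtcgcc
tRNA-Val-AAC-1-1, C at position 36: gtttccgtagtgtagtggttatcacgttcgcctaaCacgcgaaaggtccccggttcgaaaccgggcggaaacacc
tRNA-Val-AAC-2-1, C at position 36: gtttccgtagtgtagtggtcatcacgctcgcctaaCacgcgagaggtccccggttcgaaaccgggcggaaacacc
tRNA-Pro-AGG-1-1, A at position 34: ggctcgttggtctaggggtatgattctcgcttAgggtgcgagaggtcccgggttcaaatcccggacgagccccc
tRNA-Pro-TGG-2-1, T at position 34: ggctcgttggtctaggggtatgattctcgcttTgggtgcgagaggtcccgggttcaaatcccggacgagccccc
tRNA-Pro-CGG-1-1, C at position 34: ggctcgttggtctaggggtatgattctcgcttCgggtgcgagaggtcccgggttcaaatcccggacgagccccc
The 3 tRNA-Pro sequences differ only at the marked base, so reads that do not reach it cannot be told apart, and their rows are not independent. tRNA-Val-AAC-1-1 and tRNA-Val-AAC-2-1 differ by 3 bases, T20C, T27C and A43G, counted from the 5′ end with the base of the first tRNA first.

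Old and young libraries gave nearly the same stop rates at most rows. Over the T stop rows the mean stop rate was 25.6% ± 1.29 (SD, n = 3) in young and 26.4% ± 0.963 (SD, n = 3) in old libraries, 0.78 points apart and within the scatter of the libraries (exact permutation test, two-sided, p = 0.5). Over the A, C and G stop rows it was 13.5% ± 0.780 in young and 14.4% ± 0.780 in old libraries (exact permutation p = 0.4), and with 3 libraries against 3 the smallest p this test can give is 0.1. By edgeR's quasi-likelihood test on stop and read-through counts, adjusted over all 1679 rows by the Benjamini-Hochberg method, 3 rows rose (0.179% of those tested) and 5 fell (0.298%) in old libraries. At an unadjusted p under 0.05 there were 140 higher and 24 lower rows. The mean was higher in old libraries at 1010 rows (60.2%), and the median difference was 0.67 percentage points. Young replicate 2 bears on this tilt: without it the share with a higher mean in old was 52.1%, the difference over T rows was 0.15 points, and that over the other bases was 0.38 instead of 0.82. All 3 old libraries lay above all 3 young ones at 203 rows (12.1%), here called wholly higher, and below them at 78 rows (4.65%), called wholly lower. These shares are the background for the counts below. Without young replicate 2 edgeR called 4 rows, and without any 1 of young replicates 1 and 3 and old replicates 1, 2 and 3 it called none.

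**Figure D1:**
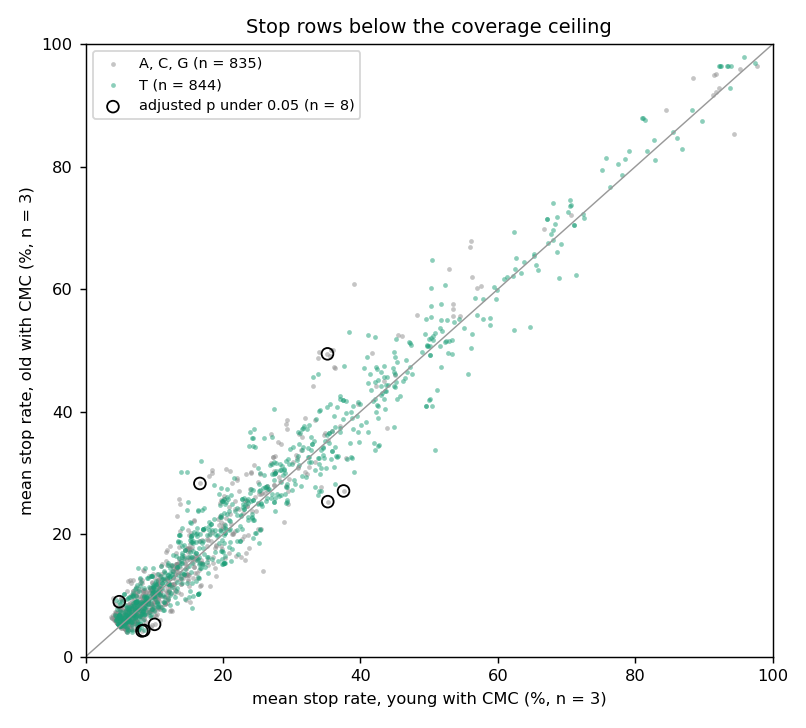
Mean stop rate with CMC of each of the 1679 stop rows below the ceiling, young on the x axis and old on the y axis (both in percent, 3 libraries each); the line marks equal rates. Most rows lie near the line, and the 8 circled rows passed the test, 3 above and 5 below it.

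The largest called rise was at G37 of tRNA-Leu-CAG-4-1, the base 3′ of the anticodon. Its stop rate was 38.7%, 28.4% and 38.5% in the young libraries and 50.0%, 51.8% and 46.5% in the old ones. The 2 ages did not overlap, and the rate rose by 14.2 ± 3.73 points (SE; edgeR adjusted p = 0.0421, the same for all 8 called rows). Without CMC it was 5.44% ± 1.45 in young and 6.68% ± 2.24 in old libraries, so the stop was mostly seen with CMC. The other 3 tRNA-Leu-CAG entries had a higher mean in old libraries as well, by 5.34 to 6.51 points, and did not pass the test. tRNA-Leu-CAG-1-1, which differs from tRNA-Leu-CAG-4-1 by 3 bases, went from 15.8% ± 3.69 to 22.3% ± 2.27 (adjusted p = 0.176). Near-identical copies may share reads, so the 4 rows cannot be taken as independent. The 2 further G37 stop rows belong to tRNA-Phe-GAA, where wybutosine stands. The stop there was near complete with and without CMC: tRNA-Phe-GAA-1-1 had 91.9%, 90.9% and 91.5% in young and 95.1%, 95.5% and 94.2% in old libraries with CMC, and in BEU 94.7%, 95.1% and 93.3% in young and 88.9%, 94.9% and 94.9% in old libraries, 2 of these 6 at the ceiling. Over all 6 rows of G37 the mean was 46.2% ± 3.21 in young and 52.8% ± 1.80 in old libraries (exact permutation p = 0.1). Adjusted over the position groups by the Benjamini-Hochberg method, this p was 0.567. At 5 of these rows the ages did not overlap, all higher in old.

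The second called rise was at T54 of tRNA-Thr-CGT-1-1, the T-loop position at which PUS10 is known to act. The rate was 4.95%, 4.46% and 5.31% in young and 8.94%, 8.44% and 9.59% in old libraries, a rise of 4.08 ± 0.41 points. In BEU it was 1.94% or less on average at both ages. tRNA-Thr-CGT-2-1, which differs from it by 1 base, had 5.15%, 4.31% and 5.53% in young and 8.29%, 8.06% and 9.68% in old libraries and stayed just outside the threshold (adjusted p = 0.0574). The base that differs, A48G counted from the 5′ end, lies 5′ of this row. Reads that stop at T54 therefore cannot be told apart, and the 2 rows are not independent. A further called rise was at a C of tRNA-Gly-ACC-1-1, base 41 from the 5′ end, in an entry whose bases were not placed in the tRNA scheme, and 21 of its 76 bases have no row in the tables. Its rate was 18.4%, 14.9% and 16.7% in young and 25.9%, 32.4% and 26.6% in old libraries. BEU libraries stopped at this base at 12.3% to 22.1%, about as often as young libraries with CMC.

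All 5 called falls lay in the anticodon itself. They belong to tRNA-Val-AAC and tRNA-Pro entries that may share reads within each set, so they cannot be taken as 5 independent falls. At C36 of tRNA-Val-AAC-1-1, the last anticodon base, the rate was 35%, 34.3% and 36.4% in young and 25.2%, 23.9% and 26.9% in old libraries, a fall of 9.93 ± 1.08 points. tRNA-Val-AAC-5-1, which differs from it by 1 base, fell from 37.5% ± 1.12 to 27.1% ± 1.40. The base that differs, G26A counted from the 5′ end, lies 5′ of this row. Reads that stop at C36 therefore cannot be told apart between these entries. tRNA-Val-AAC-2-1 had 14.2%, 15.1% and 11.8% in young and 10.8%, 17% and 16.1% in old libraries, which overlap. BEU libraries stopped at C36 too: young replicates 1 and 2 at 33.2% and 35.4% and old replicates 2 and 3 at 23.0% and 22% in tRNA-Val-AAC-1-1, while young replicate 3 and old replicate 1 reached the ceiling in BEU. The stop was therefore seen without CMC too, and the BEU libraries below the ceiling were lower in old cells as well. tRNA-Val-AAC-2-1, tRNA-Val-AAC-3-1 and tRNA-Val-AAC-4-1 had no BEU library at the ceiling. Their old minus young difference was -6.52, -7.15 and -6.37 points in BEU. With CMC it was 0.96, 0.87 and 2.19 points, and the ages overlapped.

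The other 3 falls were at the first anticodon base, position 34, of the 3 tRNA-Pro entries printed above. tRNA-Pro-AGG-1-1, whose A34 is known to be deaminated to inosine, had 8.81%, 9.33% and 12% in young and 5.79%, 4.68% and 5.4% in old libraries. tRNA-Pro-TGG-2-1 had 7.50%, 7.89% and 10.0% in young and 4.78%, 3.61% and 4.53% in old libraries. tRNA-Pro-CGG-1-1 fell from 8.21% ± 1.45 to 4.22% ± 0.45. No old library overlapped a young one at any of the 3. In BEU, 2 or 3 libraries reached the ceiling at these tRNAs. Of those below it, young replicates 1 and 2 stopped at A34 of tRNA-Pro-AGG-1-1 at 6.86% and 10.3%, and old replicates 2 and 3 at 3.96% and 3.20%, so here too the old BEU libraries were lower.

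**Figure D2:**
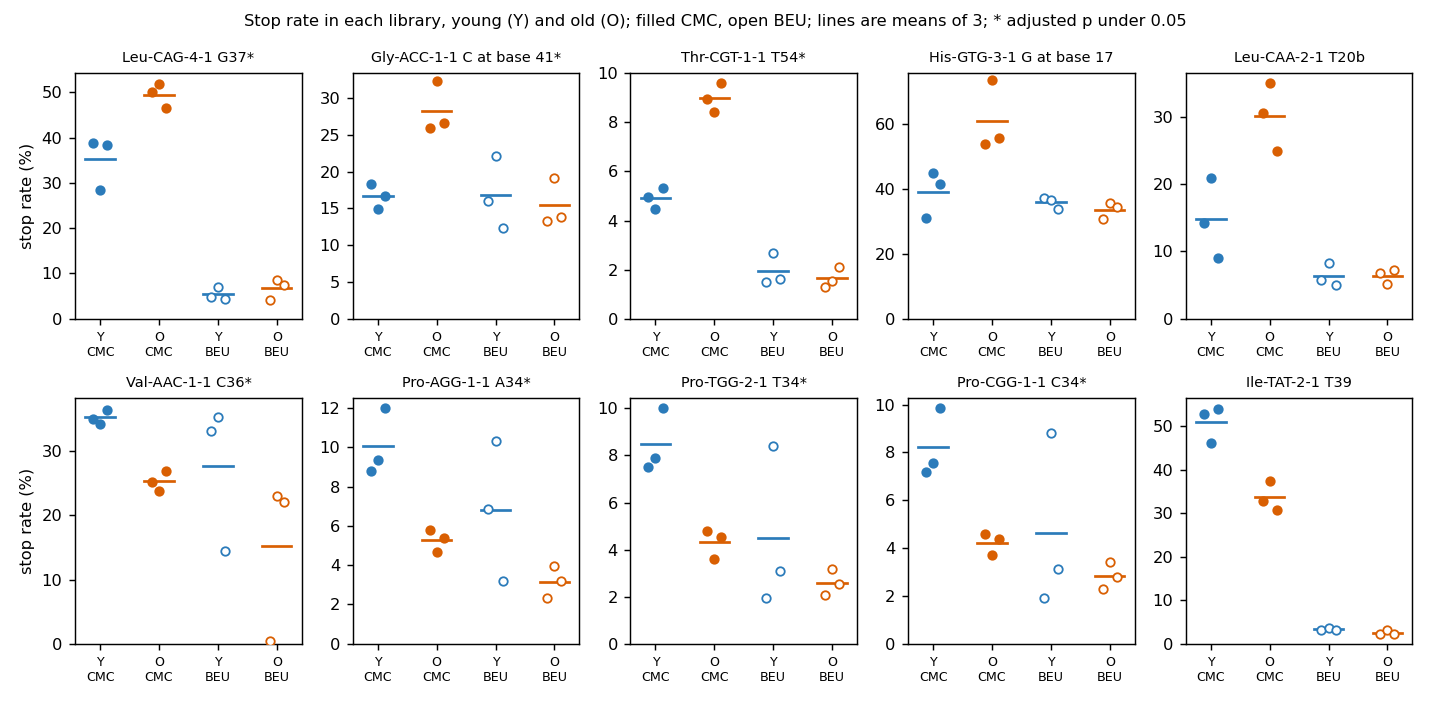
Stop rate in percent of 10 rows in each library, young (Y, blue) and old (O, orange), with CMC (filled) and in BEU (open); lines are means of 3 libraries and stars mark the rows with adjusted p under 0.05. BEU rates of tRNA-Val-AAC-1-1 and the tRNA-Pro rows include libraries at the ceiling. The ages do not overlap with CMC in any panel.

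Some larger differences without overlap did not pass the test and are given as values. The G at base 17 from the 5′ end of tRNA-His-GTG-3-1, in the D loop, is position 18 or 19, since base 15 has no row and bases 16 to 18 are all G. It had 31%, 44.8% and 41.4% in young and 53.8%, 73.3% and 55.4% in old libraries (adjusted p = 0.176), with as few as 29 reads in a library, and 30.5% to 37.1% in BEU. T20b of tRNA-Leu-CAA-2-1 went from 14.8% ± 5.91 to 30.2% ± 5.01 on as few as 20 reads (adjusted p = 0.417). T39 of tRNA-Ile-TAT-2-1, a position of PUS3, had 52.7%, 46% and 53.8% in young and 32.7%, 37.5% and 30.8% in old libraries (adjusted p = 0.200), and its BEU rate was under 4% in all 6 libraries. Chosen after the values were seen, T38 of 2 tRNA-Ala entries that differ by 1 base was higher in old libraries without passing. That base, T33C counted from the 5′ end, lies 5′ of the row. Reads that stop at T38 therefore cannot be told apart, and the 2 rows are not independent. tRNA-Ala-TGC-2-1 had 37.3%, 41.4% and 36.3% in young and 53%, 55.8% and 50.0% in old libraries (adjusted p = 0.0534). tRNA-Ala-CGC-1-1 went from 50.4% ± 1.43 to 64.8% ± 4.52 (adjusted p = 0.0826). Both lie at a PUS3 position and had BEU rates under 3%.

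In the T loop, position 54 gave 78 stop rows and position 55 gave 103. The mean over T54 rows was 22.5%, 19.9% and 21.5% in young and 22.4%, 23.9% and 21.8% in old libraries, which overlap (exact permutation p = 0.3). The mean was higher in old libraries at 57 of the 78 rows, and the ages did not overlap at 14 higher and 4 lower rows. The difference of 1.42 points was 0.74 without young replicate 2, the lowest young library here, and 0.82 without old replicate 2, the highest old one. T54 stops were strong in some tRNAs and weak in most: tRNA-Arg-ACG averaged 60.4% in young libraries, tRNA-Gln-TTG 60.4%, tRNA-Trp-CCA 58.1% and tRNA-Thr-TGT 50.1%. These strong stops were about the same in old libraries, at 63.1%, 60.4%, 59.5% and 51.9%. Of the 51 rows with a mean under 20%, 12 had all old above all young libraries, and of the 27 rows at or above it 2 had (this split was chosen after the values were seen). The rows named next were likewise chosen after the values were seen. T54 of 3 tRNA-Ser-GCT entries, 2-1, 3-1 and 4-1, was among those under 20% and wholly higher. tRNA-Ser-GCT-2-1 and tRNA-Ser-GCT-4-1 differ from tRNA-Ser-GCT-3-1 by 2 and 1 bases, so the 3 may share reads and cannot be taken as independent. tRNA-Ser-GCT-3-1 had 8.80%, 8.17% and 6.75% in young and 12.5%, 13.9% and 12% in old libraries, the largest of the 3 differences (adjusted p = 0.0970). tRNA-Arg-CCG-1-1 went from 7.17% ± 2.10 to 11% ± 0.714 and tRNA-Arg-CCG-2-1 from 6.84% ± 2.09 to 10.5% ± 0.345 (adjusted p = 0.176 for each). These 2 entries may share reads as well. The 4 lower rows were all tRNA-Cys-GCA: tRNA-Cys-GCA-3-1, the best covered of them, had 11.5%, 10.3% and 12.4% in young and 8.71%, 9.31% and 8.97% in old libraries. At the other 6 tRNA-Cys-GCA rows of T54 the ages overlapped. The best-covered T54 stop row, of tRNA-His-GTG-2-1, was 5.18% ± 0.61 in young and 5.24% ± 0.38 in old libraries.

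T55 is pseudouridine in nearly all tRNAs. Its mean was 40.6%, 36% and 42.7% in young and 39.4%, 40.8% and 37.7% in old libraries (exact permutation p = 0.9). The mean was higher in old libraries at 45 of 103 rows, with 2 rows wholly above and 6 wholly below. The best-covered row, T55 of tRNA-Ser-GCT-3-1, was 68.1% ± 3.84 in young and 68.0% ± 0.854 in old libraries, a difference of -0.08 points, against 4.91 at its neighbour T54. By amino acid the T55 mean ranged from 16.3% in tRNA-Val to 55.3% in tRNA-Ser in young libraries. tRNA-Cys, with 12 rows, went from 45.2% ± 6.46 to 40.3% ± 1.52 and overlapped.

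In the anticodon stem, PUS1 positions 27 and 28 were also taken apart, a split made after the values were seen, and most of the difference lay at T28. The group of both positions had a mean of 27.8%, 28.5% and 29.1% in young and 32.1%, 31.3% and 29.3% in old libraries (95 rows, exact permutation p = 0.1, 0.567 adjusted over the position groups). At T28 alone it was 22.4%, 24.4% and 25.1% in young and 29.3%, 28.2% and 26.5% in old libraries (47 rows). All old libraries were above all young ones at 19 of the 47 T28 rows and below them at none, where 12.1% of all stop rows were above. At the 48 T27 rows 5 were above and none below, and the mean was 32.8% ± 0.30 in young and 33.8% ± 1.5 in old libraries. Single rows did not pass the test at either position. tRNA-Cys-GCA gave 15 of the T28 rows and 12 of the 19 without overlap. These copies may share reads, and their mean was 18.8%, 22.8% and 21.2% in young and 27.9%, 25.8% and 27.1% in old libraries. tRNA-Gln-CTG had 5 rows with a mean of 19.5% in young and 27.6% in old libraries, which overlapped in replicate 3 of each age (23.7% and 22.3%). The 4 tRNA-Arg-CCT rows went from 32.6% to 36.8%, while tRNA-Asn-GTT, tRNA-Thr-TGT and tRNA-Val-AAC had no T28 row with a higher mean in old. At the 27 T28 rows below the ceiling in BEU too, the BEU mean was 2.65% ± 0.09 in young and 2.76% ± 0.05 in old libraries, against 22.6% and 26.8% with CMC.

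**Figure D3:**
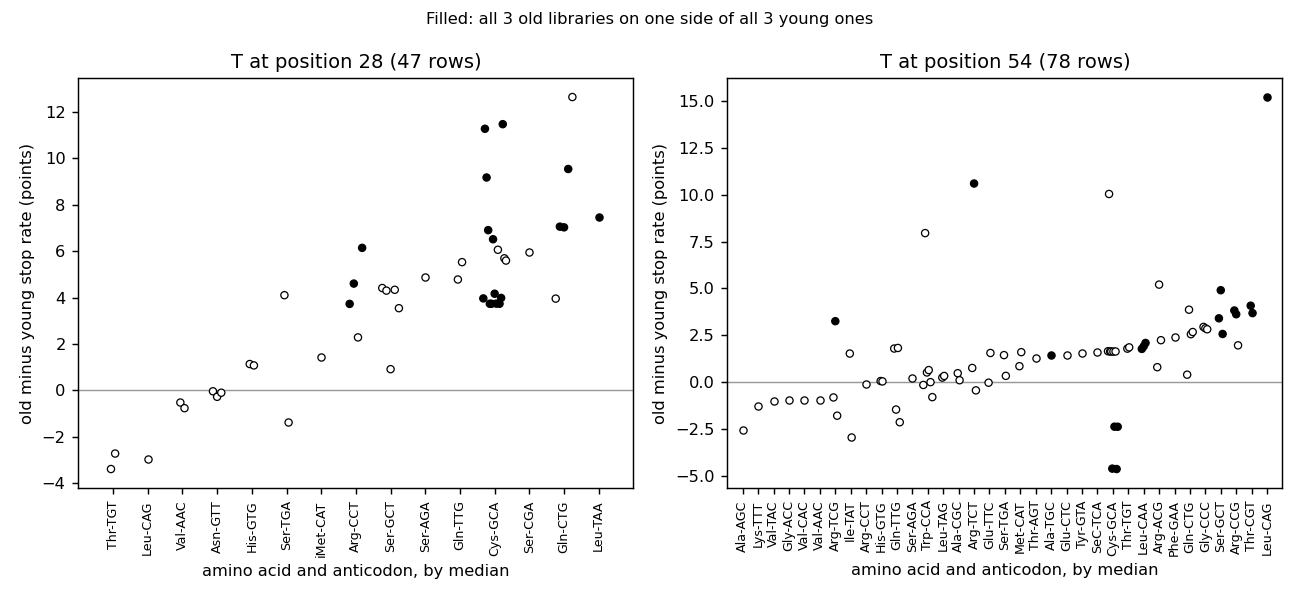
Old minus young mean stop rate with CMC, in percentage points, of every T28 row (left, 47) and T54 row (right, 78), by amino acid and anticodon on the x axis; filled points are rows whose 3 old libraries all lie on one side of the 3 young ones. At T28 the 19 filled points are all above 0; at T54 14 are above and the 4 of tRNA-Cys-GCA below.

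The PUS3 positions were grouped with T40. T38 to T40 gave 87 rows with a mean of 31.6% ± 1.12 in young and 31.7% ± 1.45 in old libraries (exact permutation p = 0.8), with 5 rows wholly above and 6 wholly below. At T38, 5 rows were wholly higher and 1 wholly lower, and at T39 none were wholly higher and 3 wholly lower. Of the 6 T40 rows 2 were wholly lower. Among amino acids, tRNA-Phe was picked after the values were seen. The mean over its 3 rows was 37.4%, 40.5% and 41.3% in young and 35.9%, 30.4% and 29.1% in old libraries, without overlap. At the PUS7 positions, T13 had 17 rows with a mean of 24.4%, 28.4% and 30.3% in young and 32.9%, 28.8% and 30.6% in old libraries (exact permutation p = 0.2), 5 of them wholly higher and none wholly lower. The T13 row of tRNA-Gly-CCC-1-1, chosen after the values were seen, had 22.4%, 29.1% and 20.2% in young and 37.1%, 37.6% and 35.4% in old libraries (adjusted p = 0.118), and the best-covered one, of tRNA-Gly-TCC-1-1, went from 42.2% ± 1.04 to 47.3% ± 2.24. T35 had 12 rows, and its mean was 19.6% ± 1.12 in young and 17.3% ± 2.17 in old libraries (exact permutation p = 0.2). The 3 tRNA-Tyr rows, the known substrate, had a mean of 49.6%, 41.7% and 46.6% in young and 34.8%, 37.8% and 41.8% in old libraries, where old replicate 3 just passed young replicate 2. Their BEU mean was 4.50% ± 0.557 in young and 1.31% ± 0.351 in old libraries. The only T35 row with a higher mean in old, also named after the values were seen, was tRNA-Glu-TTC-3-1, at 11.6%, 15.0% and 19.1% in young and 21.2%, 25.6% and 19.3% in old libraries.

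**Figure D4:**
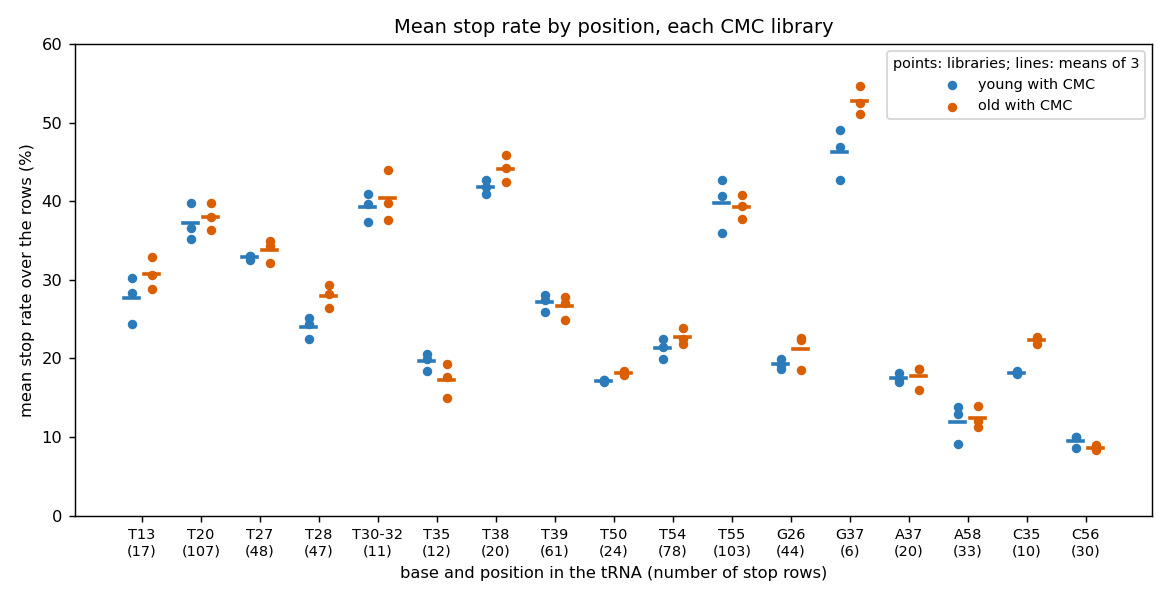
Mean stop rate with CMC, in percent, over the stop rows of each base and position (number of rows in brackets) in each library, young in blue and old in orange; lines are means of 3 libraries. The ages are apart at T28, T50, G37 and C35, where old is higher, and overlap at T54, T55, T35 and T39; C36 and G1, where old is lower, are not drawn.

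Stops at bases other than T, which cannot be pseudouridine, also differed without overlap at some rows. At G26, the site of dimethylguanosine, 34 of 44 rows had a higher mean in old libraries and 8 lay wholly above, with means of 19.2% ± 0.65 in young and 21.2% ± 2.3 in old libraries (exact permutation p = 0.4). At the 33 rows below the ceiling in BEU too, the mean was 19.4% in young and 21.6% in old libraries with CMC, and 19.7% in young and 18.1% in old libraries in BEU. Further positions were chosen after the values were seen. At C35 all 10 rows had a higher mean in old libraries, and 4 were wholly higher. They belong to tRNA-Ser-GCT and tRNA-Cys-GCA alone, whose copies may share reads, so they cannot be taken as independent. tRNA-Ser-GCT-1-1 had 30.6%, 33.8% and 35% in young and 43.9%, 46.9% and 41.7% in old libraries (adjusted p = 0.176). Its BEU rate in the libraries below the ceiling was 44% and 42% in young and 40.3% and 40.5% in old. At G27 the 5 rows, near-identical tRNA-Tyr-GTA entries with as few as 22 reads, were all wholly higher, with means of 38.2%, 36.6% and 30.3% in young and 40.4%, 54.3% and 54% in old libraries. Their BEU mean was 41.2% in young and 39.6% in old libraries. At C36, the position of the called tRNA-Val-AAC falls, the mean over 17 rows was 18.5%, 18.4% and 19% in young and 15.7%, 17.5% and 17.8% in old libraries. At G1, the first base, the mean over 25 rows was 9.85%, 9.45% and 11% in young and 8.82%, 8.39% and 8.82% in old libraries, so old was lower without overlap at both. Of the 83 pairs of a base and a position with at least 5 stop rows, old means were all above young ones at 12 and all below at 2, C36 and G1. At another T position, T50 of the T arm, 24 rows had a mean of 17.2% ± 0.101 in young and 18.1% ± 0.309 in old libraries, without overlap (exact permutation p = 0.1). At A58, the position of 1-methyladenosine, the mean was 12% ± 2.50 in young and 12.4% ± 1.35 in old libraries. C56, next to T55, had a lower mean in old at 25 of 30 rows, at 9.53% ± 0.80 in young and 8.62% ± 0.35 in old libraries. Around position 20 of the D loop, where dihydrouridine stands, 107 T rows averaged 37.2% in young and 38% in old libraries. Among them the 10 tRNA-Cys rows were near complete stops, at 89.4%, 89.0% and 90.7% in young and 94.8%, 94.0% and 93.2% in old libraries. Of the 15 wholly higher rows around position 20, 9 were theirs. These copies may share reads, so their rows cannot be taken as independent. The only one of the 10 below the ceiling in BEU stopped there without CMC as well, at 95.2% in young and 94.6% in old libraries. By region, stop rows of the anticodon arm averaged 20.4% ± 0.28 in young and 21.4% ± 0.70 in old libraries, and those of the acceptor stem 8.65% ± 0.61 and 7.76% ± 0.53.

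Whether an age difference with CMC exceeded that in BEU was tested as an interaction in the 12 libraries, at the 1001 stop rows below the ceiling and covered in all of them. No row passed by edgeR (lowest adjusted p = 0.110), and 122 had an unadjusted p under 0.05, 105 of them with a higher difference in CMC. Over these rows the mean went from 21.2% to 22.1% with CMC and from 13% to 12.4% in BEU.

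At the ceiling no stop row passed (0% of 168), and none had an unadjusted p under 0.05. The mean was higher in old libraries at 146 of the 168 rows, but young replicate 2 stood apart: its mean was 9.10%, against 21.1% and 21.5% in the other young libraries and 20.6%, 21.5% and 18.6% in the old ones. It was below every other library at 146 rows, and 56 of its tRNAs reached the ceiling, against 0 to 23 in the other CMC libraries. Without it 54 of the 168 rows had a higher mean in old, and the median difference was -0.54 points instead of 2.44. Wholly higher rows made up 5.95% and wholly lower rows 1.19%.

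**Figure D5:**
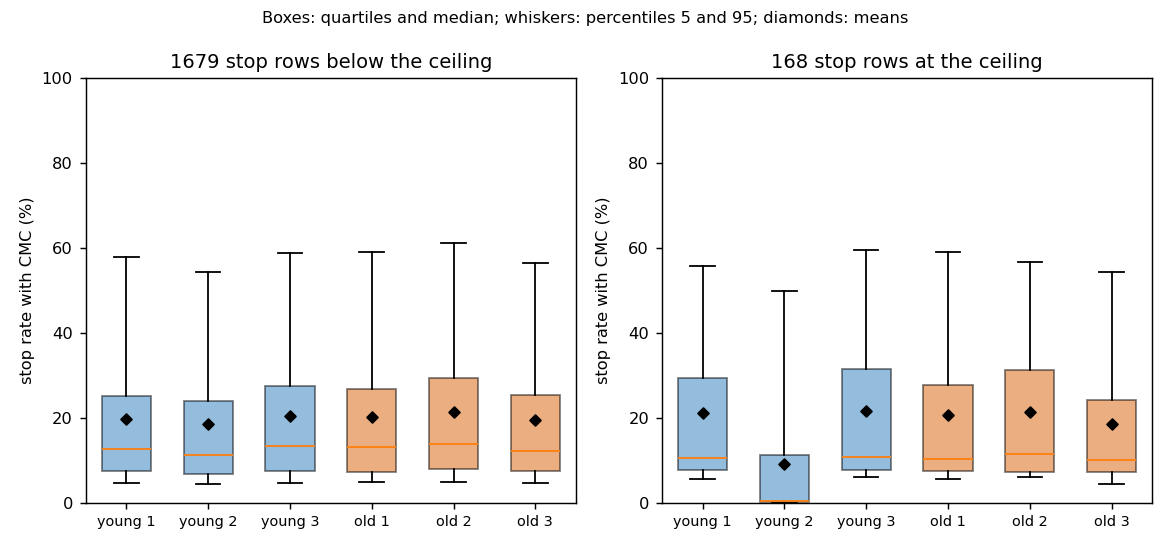
Stop rates with CMC in percent in each library over the 1679 stop rows below the ceiling (left) and the 168 at it (right); boxes give quartiles and median, whiskers percentiles 5 and 95, and diamonds means. At the ceiling young replicate 2 has a mean of 9.10%, under those of all other libraries.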

How the data were processed

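The values are those the authors deposited in tables for each age and replicate number. The columns are, per the file headers, the count of reads covering a base, the count of reads stopping there and the stop rate, a percent the authors computed from both counts. Bowtie2 2.3.5, Bowtie and mm10 are named in the submitters' processing notes, without their roles; the rule that defines a stop is not stated there. The 404 entries were reduced to 213 with distinct values. Positions follow the usual tRNA scheme, counted up to 16 at the 5′ end and set by the anticodon (367 entries placed) and by the T loop (378); genome coordinates are not given.

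Stop and read-through counts were paired and tested in edgeR 4.0.16 (R 4.3.3; quasi-likelihood, library terms plus 1 age term on the log odds, no dispersion trend, Benjamini-Hochberg). A row was called with adjusted p under 0.05 and the same sign in the mean rates. The fit was also run on simulated counts, drawn independently for each row at the coverage of these libraries. That run holds no reads shared among near-identical tRNAs, so it does not vouch for the called rows. Named rows are the 10 largest called differences per direction (at most 1 per anticodon and position, the one of highest lowest coverage), filled to 5 with the largest without overlap, and the best-covered row of each position group; a selection is printed. All other rows, families and positions named were chosen after the values were seen. Alternatives used limma 3.58.1, DESeq2 1.42.0, other filters and fewer libraries. The rule for the rows, the position groups and the lists were chosen with earlier results of these data known. No molecular identifiers are stated, and how reads of near-identical tRNAs were assigned is not stated.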

Additional observations from a re-analysis of the deposited data

How the results depend on the processing

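The 8 calls below the ceiling were few and depended on most choices. The count was 8 with coverage minimums of 50 and 10 and with 1 subtracted, 12 with no filter on stops (7 higher), and 22 with all entries (6 higher, 16 lower). A dispersion trend gave 5 higher and 3 lower. It was 0 in each direction with mean stop rates of at least 2% or 10%, limma (162 rows at unadjusted p under 0.05), DESeq2 (69), counts summed per anticodon and position (91), rows under 7500 in all 12 libraries (92), rows below and at the ceiling together (121) and the replicate block (130). Deviations of same-numbered libraries correlated at -0.05, -0.13 and -0.04, and those of differently numbered ones at -0.083 to 0.13. No pairing by number was seen, but counting noise at single rows can hide it, so whether the numbers pair the ages stays unknown. Leaving out 1 library gave 0 to 4 calls, 0 to 2 of them higher and 0 to 2 lower. The called rows, apart from tRNA-Val-AAC-5-1, which was not followed, kept their direction in every alternative run on them. In most alternatives this outcome was fixed, since the direction is that of the row's own mean rates. Other tools, filters, ceiling rules, entry choices and the replicate block leave these rates as they are. Only subtracting 1 could have turned the direction. Leaving out a library could not, since the ages did not overlap at the called rows. Each of these rows passed in 6 of its 17 to 19 alternatives. The interaction with BEU gave 1 call with all entries and 0 to 1 when a library was left out (1 without young replicate 3). The T55 difference, -0.47 points, turned to 0.074 with summed counts and 1.11 with rows at the ceiling included, and ranged from -2.38 to 1.01 when a library was left out, above 0 without young replicate 3 or old replicate 3. The share of ceiling rows higher in old was 56.1% with no filter on stops and 32.1% to 89.9% when a library was left out. Position groups whose difference changed sign, all without a call, were T20 (-0.48 with a coverage minimum of 50; -0.12 to 2.18 when a library was left out), A37 (-0.40 with at least 10%, -0.060 with summed counts, -0.16 under 7500 in all 12; -0.19 to 1.15), T38-40 (-0.054 with all entries; -0.49 to 0.94), T30-32 (-1.30 under 7500 in all 12; -0.61 to 2.57), G9-10 (-0.12 to 2.39), A9 (-0.74 to 4.16) and A58 (-0.98 to 1.38). Uncalled best-covered rows that changed sign when a library was left out were T55 (-1.82 to 1.98) and C56 (-0.21 to 0.19) of tRNA-Ser-GCT-3-1, T54 of tRNA-His-GTG-2-1 (-0.23 to 0.38), T38 of tRNA-Pro-TGG-2-1 (-0.094 to 2.47), T60 of tRNA-Ser-TGA-2-1 (-0.28 to 1.76), G10 of tRNA-Gly-GCC-1-1 (-0.27 to 0.28), A58 of tRNA-Ala-CGC-2-1 (-0.95 to 1.30) and A9 of tRNA-Asp-GTC-1-1 (-2.59 to 1.56, and 0.11 with 1 subtracted). T28 differed by 3.11 to 4.76 points under all alternatives, which for this position were chosen after seeing the data. The cause of these shifts was not tested.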
